A study of Mus musculus with 8 samples.

Results

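Glycolysis, gluconeogenesis, the pyruvate dehydrogenase reaction and the citric acid cycle were examined in mouse kidney through a list of 53 genes, chosen by symbol for the enzymes of these pathways and the kinases and phosphatases that act on them. A gene was used when its row of the deposited count table held 8 values, the number of libraries named. This was so for 41 of the 53 genes, out of 35880 such rows in all. The other 12 had no usable row: the hexokinases Hk1, Hk2 and Hk3, the phosphofructokinase genes Pfkl, Pfkm and Pfkp, and Pfkfb4, Pgam1, Pklr, Pdp2, Fh1 and Sucla2. The first step of glycolysis, its committed step, the phosphoglycerate mutase step and the fumarase step of the cycle were therefore not analysed here. All 41 remaining genes passed the filter on low counts, and they comprised 13 genes of glycolysis, 6 of gluconeogenesis, 9 of pyruvate dehydrogenase and its regulators, and 13 of the citric acid cycle.

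Whole kidneys of wild-type mice were compared between animals injected with saline (control, n = 4) and animals injected with cisplatin, a platinum drug that injures the renal tubule (n = 4). Both groups were collected 72 h after injection. The methods of the study describe male C57/BL6J mice and an intraperitoneal route, and no age is given there. Each library was taken as 1 animal, and p-values measure the spread between these libraries. The controls are numbered 1, 2, 3 and 5 and the cisplatin libraries 1, 3, 4 and 6 in the labels, and values below are listed in that order.

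Glycolysis splits glucose into pyruvate in the cytosol and can end in lactate. Gluconeogenesis runs the other way through 4 bypass enzymes, pyruvate carboxylase, phosphoenolpyruvate carboxykinase, fructose-1,6-bisphosphatase and glucose-6-phosphatase, and in the kidney it takes place in the proximal tubule, which makes glucose from lactate and glutamine. Pyruvate dehydrogenase feeds pyruvate carbon into the citric acid cycle inside mitochondria, and its kinases switch it off while its phosphatases switch it on.

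Total counts over the usable rows ran from 10953338 to 16701599 per library, so that 3 counts corresponded to 0.180 to 0.274 CPM (counts scaled to a library total of 1e6). Libraries fell into sets on the second principal component (15.96% of the variance): controls 1, 2 and 3 with cisplatin 1 and 3, and control 5 with cisplatin 4 and 6. The libraries cisplatin 1 and 3 held 0 to 3 counts of the Y-linked genes Kdm5d and Eif2s3y, against 274 to 1333 counts in the other 6 libraries, although the methods describe male mice. All 23 genes called below had the same direction in both sets, as had 14 of the 18 uncalled genes. The calls were made on these same libraries, so this agreement is no independent support. Control 5 is the only control of the second set. Results are also given without cisplatin 1 and 3. All 16 markers of the proximal tubule were present in the controls, where they summed to 69231.8 to 86017.4 CPM. In the cisplatin kidneys all 16 were down-regulated, and their sum was 1843.3, 1226.9, 9023.1 and 15281.2 CPM. The 4 usable markers of the thick ascending limb and distal tubule summed to 7514.5 to 11427.2 CPM in the controls and to 4424.8, 2630.7, 1162.2 and 534.0 CPM after cisplatin, and 3 of the 4 were down-regulated. Both usable fibroblast markers, Col1a1 and Col3a1, were up-regulated, and their sum went from 32 to 139.4 CPM in the controls to 982.9, 915.0, 208.1 and 677.6 CPM. Of 8 markers of injured tubule, 7 were up-regulated. Of 8 leukocyte markers 5 were up-regulated, with means of 2.57 to 81.2 CPM after cisplatin, and Ptprc was down-regulated (log2 fold change -1.44). The leukocyte sum was 88.6 to 153.3 CPM in the controls and 204.6, 173.3, 149.6 and 199.3 CPM after cisplatin, so the groups overlapped. None of the 2 podocyte and 3 endothelial markers was called. Of 4 collecting duct markers 1 was up-regulated and 1 was down-regulated.

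Across the 41 genes, cisplatin kidneys had 5 genes up-regulated and 18 down-regulated. A gene was called at an adjusted p under 0.05 (edgeR quasi-likelihood test with Benjamini-Hochberg adjustment over 9141 genes) and a log2 fold change of at least 1 in size. The same rule called 19.2% of all tested genes higher, 15.7% lower and 34.9% in either direction. At an adjusted p under 0.05 with no fold threshold, 6 of the 41 genes were higher and 24 lower, where 26.4% and 22.6% of all genes were. All cisplatin kidneys lay above all controls in 6 of the 41 genes and below them in 25, where 23.7% and 22.5% of all genes did so. The median log2 fold change of the 41 genes was -0.89, against 0.08 over all genes tested. The down-regulated genes lay in gluconeogenesis (4 of 6), pyruvate dehydrogenase and its regulators (5 of 9) and the citric acid cycle (9 of 13), and none of the 13 glycolysis genes was down-regulated. The up-regulated genes were Pkm, Pfkfb3, Fbp2, Pdk4 and Pdp1. Without cisplatin 1 and 3, 4 of the 41 genes were up-regulated and 20 were down-regulated, and the calls of Pfkfb3 and Dlst were lost. Levels between libraries were scaled by TMM. Scaling by total library size instead raised the log2 fold change of the median gene by 0.57, which left 7 of the 41 genes up-regulated and 11 down-regulated, with all 18 down-regulated genes still below 0. In whole tissue, fewer cells of a type and less RNA per cell cannot be told apart. The proximal and distal tubule, fibroblast and injured tubule markers moved together with these results. Leukocyte and collecting duct markers were mixed, and podocyte and endothelial markers were not called. The part of these cell types in the result was not tested.

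**Figure D1:**
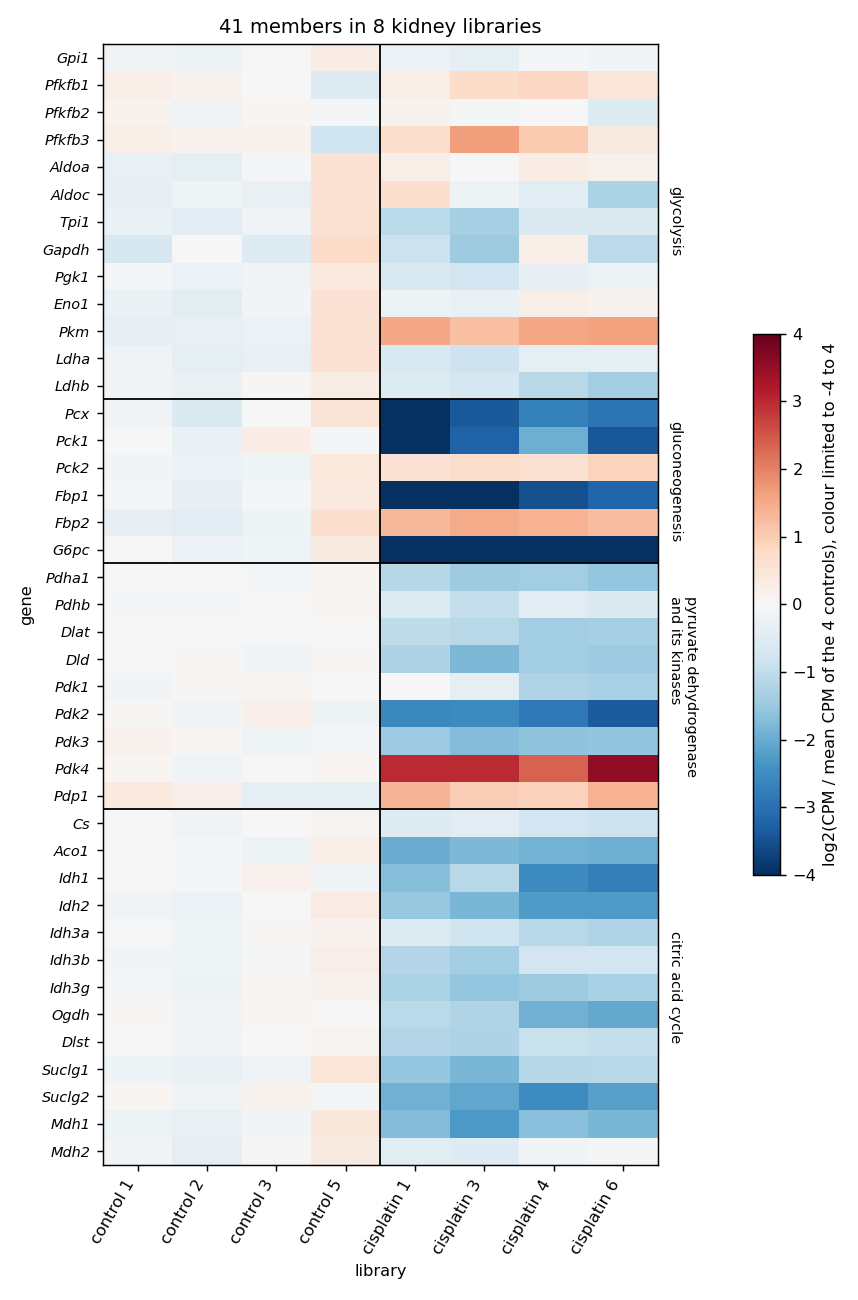
Heat map of 41 genes (rows, grouped by pathway) in 8 kidney libraries (columns), coloured by the log2 ratio of a library's TMM-normalized CPM to the mean of the 4 controls, with colours limited to -4 and 4. The cisplatin columns are on the blue side for all 13 citric acid cycle genes, only faintly for Mdh2, and blue for Pcx, Pck1, Fbp1 and G6pc. They are red for Pkm, Fbp2, Pdk4 and Pdp1.

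The rank order of the genes by level per length differed between the groups. Per kilobase of gene length, Ldhb had the highest mean level in the controls (1138 CPM per kb), followed by Fbp1 (975 CPM per kb), Pck1 (946 CPM per kb), Mdh1 (690.2 CPM per kb) and Aldoa (391 CPM per kb). In the cisplatin kidneys Ldhb was again first (607 CPM per kb), followed by Aldoa (444 CPM per kb), Pgk1 (234 CPM per kb), Pkm (200.1 CPM per kb) and Ldha (189.8 CPM per kb). Thus 2 gluconeogenic genes held ranks 2 and 3 in the controls, and Fbp1 had rank 20 and Pck1 rank 11 after cisplatin. Pkm moved from rank 27 to rank 4 and Pdk4 from rank 33 to rank 10.

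Gluconeogenesis held the largest falls among the 4 pathways. The upstream sequences of 4 genes are shown, since Pck1 and G6pc both fell and the neighbours Fbp1 and Fbp2 moved in opposite directions. The sequences are those RefSeq gives for GRCm38.p6, 5′ to 3′ on the gene's strand, within 250 bases before the first listed start, and they end where a transcript of the gene begins in GENCODE M21. They lie at chr2:173152823-173153047 (+ strand) for Pck1, chr11:101367466-101367560 (+ strand) for G6pc, chr13:62888283-62888532 (- strand) for Fbp1 and chr13:62858423-62858650 (- strand) for Fbp2. Capitals mark matches on either strand to ACGTG or GCGTG (core of the hypoxia response element), TGACG (half-site of the cAMP response element) and GTTAAT (half-site of HNF1).
Pck1: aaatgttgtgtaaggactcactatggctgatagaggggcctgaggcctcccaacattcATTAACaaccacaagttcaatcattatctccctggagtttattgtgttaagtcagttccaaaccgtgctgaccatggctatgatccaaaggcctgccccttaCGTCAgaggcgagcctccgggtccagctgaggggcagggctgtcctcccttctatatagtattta
G6pc: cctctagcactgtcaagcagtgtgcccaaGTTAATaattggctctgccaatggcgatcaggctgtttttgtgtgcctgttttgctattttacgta
Fbp1: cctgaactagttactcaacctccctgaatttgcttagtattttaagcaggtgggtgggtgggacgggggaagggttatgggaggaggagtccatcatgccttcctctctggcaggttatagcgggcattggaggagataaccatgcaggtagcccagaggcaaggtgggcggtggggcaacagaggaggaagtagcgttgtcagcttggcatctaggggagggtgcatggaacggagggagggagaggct
Fbp2: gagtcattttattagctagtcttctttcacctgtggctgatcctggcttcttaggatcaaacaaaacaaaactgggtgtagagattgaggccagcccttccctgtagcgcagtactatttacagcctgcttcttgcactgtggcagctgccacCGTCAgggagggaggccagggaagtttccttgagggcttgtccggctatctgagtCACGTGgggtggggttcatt
The Pck1 window held CGTCA, the reverse complement of TGACG, 90 bases before the start and ATTAAC, the reverse complement of GTTAAT, 192 bases before it. The G6pc window held GTTAAT 221 bases before the start, the Fbp1 window held no match, and the Fbp2 window held CACGTG, which reads ACGTG on both strands, and CGTCA.

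Windows of 300 bases (250 before to 50 after the first listed start) were at hand for 39 of the 41 genes and for 27025 genes in all. ACGTG or GCGTG occurred in 38.6% of all these windows, in 9 of 18 down-regulated genes and in 3 of the 4 up-regulated genes with a window. TGACG occurred in 17.9% of all windows, in 4 of 18 down-regulated and 2 of 4 up-regulated genes. GTTAAT occurred in 6.52% of all windows, in 3 of 18 down-regulated and in 0 of 4 up-regulated genes. A match describes letters in this window only.

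Pcx (ENSMUSG00000024892, chr19:4510472-4621752, + strand) encodes pyruvate carboxylase, the mitochondrial enzyme that opens the pathway by making oxaloacetate from pyruvate. It was at 1197, 890.5, 1313 and 1920.0 CPM in the controls and 84.6, 131, 202 and 175 CPM in the cisplatin kidneys. All cisplatin values lay below all controls, and the gene fell 8.98-fold (log2 fold change -3.17, SE 0.34, adjusted p = 6.68e-05). Its row overlaps Lrfn4 on the opposite strand.

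Pck1 (ENSMUSG00000027513, chr2:173153048-173159273, + strand) encodes the cytosolic phosphoenolpyruvate carboxykinase, a hormone-controlled step of the pathway. Its levels were 3258, 2682, 3967 and 3073 CPM in the controls and 137, 343, 833 and 308 CPM after cisplatin. The highest cisplatin value, in cisplatin 4, stayed under the lowest control, and the log2 fold change was -3.00 (SE 0.49, adjusted p = 0.000781). Without cisplatin 1 and 3 it was -2.49, with an adjusted p of 0.0016. Pck2, the mitochondrial isozyme (ENSMUSG00000040618, chr14:55540266-55551242, + strand), was at 21.8 to 34.6 CPM in the controls and 38.3 to 48.3 CPM after cisplatin. All cisplatin values of Pck2 lay above the controls with an adjusted p of 0.0111, but its log2 fold change of 0.70 (SE 0.19) did not reach the threshold of 1.

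Fbp1 and Fbp2 encode fructose-1,6-bisphosphatase, Fbp1 the form of liver and kidney and Fbp2 the form known from muscle. They lie on the - strand of chromosome 13 at chr13:62864753-62888282 (ENSMUSG00000069805) and chr13:62836877-62858422 (ENSMUSG00000021456), with 6330 bases between them. Fbp1 was at 1612, 1310.1, 1561 and 2158 CPM in the controls and 34.4, 49.2, 146 and 180.0 CPM after cisplatin. It fell 16.2-fold, the groups did not overlap, and the lowest values were those of cisplatin 1 and 3 (log2 fold change -4.02, SE 0.54, adjusted p = 0.000257). Fbp2 was at 16.9, 15.4, 18.2 and 34 CPM in the controls and 51.7, 59.3, 55.7 and 49.9 CPM after cisplatin. It rose 2.56-fold, again with no overlap (log2 fold change 1.36, SE 0.25, adjusted p = 0.00178), and control 5 was the control nearest to the cisplatin values. Per kilobase, the sum of both genes was 989.8 ± 215.4 CPM in the controls and 97 ± 41 CPM after cisplatin (SD, n = 4). Fbp2 made up 1.42% ± 0.26 of that sum in the controls and 63.5%, 58.3%, 30.7% and 24.3% of it in the cisplatin kidneys. The level of Fbp2 after cisplatin thus stayed well under that of Fbp1 in the controls. No muscle marker of the list had a usable row.

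G6pc (ENSMUSG00000078650, chr11:101367561-101377903, + strand) encodes the catalytic subunit of glucose-6-phosphatase, which releases free glucose. Its values were 655, 554, 578 and 840.1 CPM in the controls and 10.4, 15.9, 20.8 and 15.2 CPM in the cisplatin kidneys. This was the largest change of the 41 genes, a 42.2-fold fall (log2 fold change -5.40, SE 0.28, adjusted p = 1.38e-06). The log2 ratio of cisplatin to control was -5.50 in the first library set and -5.54 in the second. Leaving out any 1 library gave log2 fold changes of -5.57 to -5.24 for G6pc, -4.44 to -3.72 for Fbp1, -3.36 to -2.95 for Pcx and -3.63 to -2.71 for Pck1, and the 4 calls held under each of 17 alternatives. The sum of the proximal tubule markers, which moved with these genes, was lowest in cisplatin 1 and 3, as were Fbp1 and Pcx, whereas Pck1 and G6pc were lowest in cisplatin 1 and 6.

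**Figure D2:**
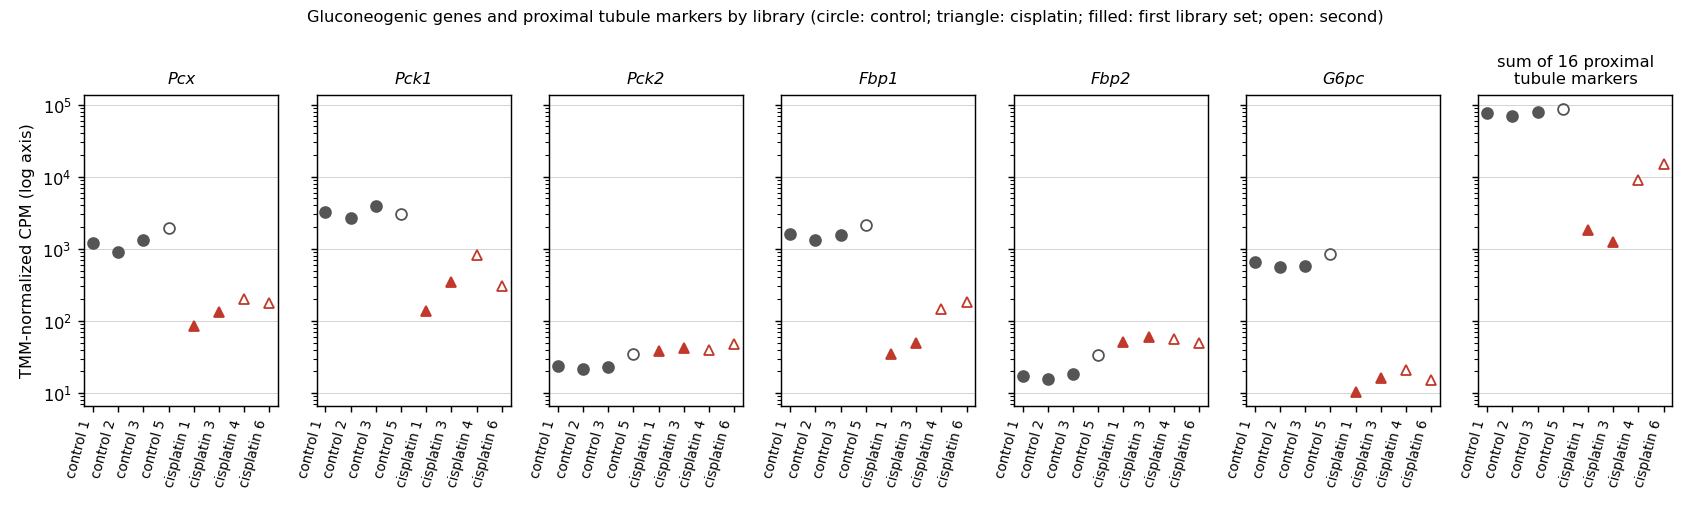
TMM-normalized CPM (log axis) of the 6 gluconeogenic genes and, at the right, the sum of 16 proximal tubule markers in each of 8 libraries, with circles for controls, triangles for cisplatin kidneys, filled symbols for the first library set and open symbols for the second. Pcx, Pck1, Fbp1 and G6pc lie lower in every cisplatin kidney than in any control, Pck2 and Fbp2 lie higher, and the marker sum falls from between 69231.8 and 86017.4 CPM to between 1226.9 and 15281.2 CPM.

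Pyruvate dehydrogenase and its regulators showed falls in the enzyme subunits and opposite changes among the kinases. The complex holds the E1 subunits Pdha1 and Pdhb, the E2 core Dlat and the E3 subunit Dld, which it shares with the 2-oxoglutarate dehydrogenase complex. Pdha1 (ENSMUSG00000031299, chrX:160122209-160138413, - strand) was at 637, 646, 635 and 686 CPM in the controls and 294, 245, 249.7 and 222 CPM after cisplatin, with a log2 fold change of -1.37 (SE 0.15, adjusted p = 8.29e-05). Dlat (ENSMUSG00000000168, chr9:50634633-50659780, - strand) stood at 269, 267, 265 and 269 CPM against 134, 124, 101 and 107 CPM, and its log2 fold change was -1.20 (SE 0.14, adjusted p = 0.00012). Both genes separated the groups completely, and the 4 controls of Dlat lay between 265 and 269 CPM. Dld (ENSMUSG00000020664, chr12:31331277-31351453, - strand) had 511, 523, 465 and 517 CPM in the controls and 213, 145, 190.4 and 185 CPM after cisplatin (log2 fold change -1.46, SE 0.16, adjusted p = 8.37e-05). Pdhb (ENSMUSG00000021748, chr14:8165996-8173025, - strand) went from 250.3, 252, 259 and 285 CPM to 181, 136, 194 and 176 CPM, without overlap. Its log2 fold change of -0.61 (SE 0.15, adjusted p = 0.00819) was short of the threshold. Scaled by total library size, the log2 fold changes of Pdha1, Dlat and Dld were -0.79, -0.63 and -0.89, past the adjusted p but under the fold threshold. Of the subunits outside the list of 53, Pdhx, which tethers E3 to the core, had a log2 fold change of -0.75 (SE 0.15, adjusted p = 0.00276), and Pdpr, the regulatory subunit of the phosphatase, fell by 1.62 on the log2 scale (SE 0.25, adjusted p = 0.000563).

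The pyruvate dehydrogenase kinases phosphorylate and switch off E1. Pdk2 (ENSMUSG00000038967, chr11:95026258-95041354, - strand) is the widely expressed form and Pdk4 (ENSMUSG00000019577, chr6:5483351-5496309, - strand) the form known to be induced by fasting and glucocorticoids. Since these 2 isozymes moved in opposite directions, their RefSeq sequences from GRCm38.p6 are shown in the same way, at chr11:95041372-95041621 and chr6:5496310-5496528 (both - strand).
Pdk2: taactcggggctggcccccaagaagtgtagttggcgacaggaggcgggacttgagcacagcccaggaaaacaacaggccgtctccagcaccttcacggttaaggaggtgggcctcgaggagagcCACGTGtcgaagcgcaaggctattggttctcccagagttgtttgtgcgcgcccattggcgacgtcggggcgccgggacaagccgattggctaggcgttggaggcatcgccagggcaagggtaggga
Pdk4: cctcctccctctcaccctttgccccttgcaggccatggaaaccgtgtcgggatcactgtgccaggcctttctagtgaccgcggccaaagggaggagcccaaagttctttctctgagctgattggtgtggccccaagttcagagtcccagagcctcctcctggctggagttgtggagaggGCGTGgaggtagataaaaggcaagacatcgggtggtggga
Capitals mark CACGTG at 126 to 125 bases before the start in Pdk2 and GCGTG 71 bases before the start in Pdk4, letters that 38.6% of all windows hold in some form. Pdk2 was at 674, 605, 755 and 565 CPM in the controls and 108, 111, 89.8 and 64.3 CPM in the cisplatin kidneys. It fell 6.95-fold with no overlap (log2 fold change -2.80, SE 0.21, adjusted p = 1.07e-05). The gene overlaps the antisense gene Gm11513. Pdk4 was at 53.8, 45.9, 50.3 and 53.7 CPM in the controls and 403, 403, 260.3 and 598 CPM after cisplatin. It rose 8.18-fold, the largest rise among the 41 genes (log2 fold change 3.03, SE 0.25, adjusted p = 1.58e-05), and the log2 ratio was 3.01 in the first library set and 3.0 in the second. Pdk3 (ENSMUSG00000035232, chrX:93764607-93832201, - strand), a kinase encoded on the X chromosome, was at 106, 96.5, 83 and 90.2 CPM in the controls and 34.1, 28.5, 30.8 and 31.5 CPM after cisplatin, a fall of 3.01-fold (SE of the log2 fold change 0.14, adjusted p = 2.35e-05). Pdk1 (ENSMUSG00000006494, chr2:71873224-71903858, + strand), a kinase known as a target of the hypoxia factor HIF-1, ranged from 56.2 to 63.4 CPM in the controls and from 24.9 to 61.3 CPM after cisplatin. Its groups overlapped, and the log2 fold change of -0.61 (SE 0.28) had an adjusted p of 0.0957. Its log2 ratio was -0.17 in the first library set and -1.25 in the second, and without cisplatin 1 and 3 the log2 fold change was -1.24 (adjusted p = 0.000237). Pdp1 (ENSMUSG00000049225, chr4:11958184-11966452, - strand), the catalytic subunit of the phosphatase that reactivates E1, was at 14.3, 12.6, 8.49 and 8.26 CPM in the controls and 28.1, 21.6, 20.7 and 28.5 CPM after cisplatin. Pdp1 rose 2.27-fold from this low level (log2 fold change 1.18, SE 0.23, adjusted p = 0.00244). Summed over the 4 kinases per kilobase, the level was 264.4 ± 25.6 CPM in the controls and 165.4 ± 36.3 CPM after cisplatin (SD, n = 4). Pdk2 made up 77.5% ± 2.6 of the kinase sum in the controls and 18.8% ± 6.18 after cisplatin, and Pdk4 made up 5.52% ± 0.676 and 70.4% ± 8.52.

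In the citric acid cycle, 9 of 13 genes fell and none rose, with a median log2 fold change of -1.37. With total library size 5 of the 13 fell, and the median was -0.81. Among the 17 alternatives, 11 gave 10 falls. At an adjusted p under 0.05 with no fold threshold, 12 of 13 were lower, and in these 12, all but Mdh2, every cisplatin kidney lay under every control. Suclg2, the GTP-forming subunit of succinyl-CoA synthetase (ENSMUSG00000061838, chr6:95473009-95718800, - strand), had the largest fall, from 811, 706, 857 and 727 CPM to 207, 182, 135 and 171 CPM (log2 fold change -2.16, SE 0.18, adjusted p = 1.71e-05). Its partner subunit Suclg1 (ENSMUSG00000052738, chr6:73248382-73276911, + strand) was at 449, 422, 468 and 709 CPM in the controls and 175, 146, 233 and 238 CPM after cisplatin. Control 5 was the highest control of Suclg1, and the log2 fold change was -1.37 (SE 0.23, adjusted p = 0.00102). In Cs, Idh1, Idh2, Idh3a, Ogdh and Suclg2 the lowest levels were those of cisplatin 4 and 6, as in the sum of the distal tubule markers. In Idh3b, Dlst, Suclg1 and Mdh2 they were those of cisplatin 1 and 3, as in the sum of the proximal tubule markers. Aco1 was lowest in cisplatin 1 and 6, Idh3g in 3 and 4, and Mdh1 in 3 and 6. Cisplatin 1 and 3 also differ from 4 and 6 in library set and Y-linked counts, which cannot be told apart from the marker sums here. The other genes are given in the order of their steps.

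Citrate synthase, Cs (ENSMUSG00000005683, chr10:128337734-128362479, + strand), opens the cycle. Its 564, 510.5, 571 and 611 CPM in the controls stood against 396, 408, 332 and 310.0 CPM after cisplatin, without overlap, and its log2 fold change of -0.64 (SE 0.16, adjusted p = 0.00734) stayed under the threshold. Aco1 (ENSMUSG00000028405, chr4:40143081-40198338, + strand), the cytosolic aconitase that also acts as an iron-regulatory RNA-binding protein, had 727, 684, 628 and 865 CPM in the controls and 183, 208, 195 and 189 CPM after cisplatin. The cisplatin values of Aco1 lay close together, and it fell 3.75-fold (adjusted p = 1.78e-05).

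Idh1 and Idh2 are the NADP-dependent isocitrate dehydrogenases of the cytosol and of mitochondria. Idh1 (ENSMUSG00000025950, chr1:65158616-65186500, - strand) was at 791, 735, 874 and 728 CPM in the controls and 238, 366, 135 and 117 CPM after cisplatin. Idh2 (ENSMUSG00000030541, chr7:80094846-80115392, - strand) was at 678, 644, 736 and 946 CPM and 262, 211, 156 and 155 CPM. In both genes the second library set showed the lower cisplatin values. The log2 fold changes were -1.87 (SE 0.34, adjusted p = 0.00154) for Idh1 and -1.94 (SE 0.23, adjusted p = 0.000118) for Idh2. Within the first and the second set, the log2 ratio was -1.41 and -2.53 for Idh1 and -1.54 and -2.60 for Idh2.

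The NAD-dependent isocitrate dehydrogenase of the cycle is built from Idh3a, its catalytic subunit, Idh3b and Idh3g. Idh3a (ENSMUSG00000032279, chr9:54586334-54604661, + strand) was at 280.0, 254, 292 and 315 CPM in the controls and 196, 166, 131 and 123 CPM after cisplatin. Idh3b (ENSMUSG00000027406, chr2:130279309-130284547, - strand) was at 463, 439, 485 and 600.2 CPM and 219, 195, 289 and 291 CPM, and Idh3g (ENSMUSG00000002010, chrX:73778963-73786897, - strand) at 445, 398, 484 and 508 CPM and 190.3, 156, 173 and 189 CPM. None of the 3 subunits overlapped between the groups. Idh3g fell with a log2 fold change of -1.37 (SE 0.15, adjusted p = 8.07e-05). The log2 fold change of Idh3b was -0.999 (SE 0.19, adjusted p = 0.00191), just inside the threshold, and the gene was called in 10 of 17 alternatives, among them DESeq2 (-1.03) and the library set as a covariate (-1.12). The log2 fold change of Idh3a was -0.89 (SE 0.18, adjusted p = 0.00272). Idh3b overlaps Nop56 on the opposite strand.

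Ogdh and Dlst form E1 and E2 of the 2-oxoglutarate dehydrogenase complex. Ogdh (ENSMUSG00000020456, chr11:6291633-6356642, + strand) was at 1512, 1365, 1559 and 1479.9 CPM in the controls and 693, 637, 393 and 356 CPM after cisplatin, a 2.84-fold fall (adjusted p = 0.000763). Dlst (ENSMUSG00000004789, chr12:85110833-85134845, + strand) was at 836, 777, 830.0 and 901 CPM and 368, 354, 454 and 430.2 CPM, a 2.08-fold fall (adjusted p = 0.000449). Dlst was the call nearest to the threshold among the falls, with a log2 fold change of -1.06 (SE 0.16) that became -0.91 without cisplatin 1 and 3. Succinate dehydrogenase lies outside the list of 53. Of its subunits, named after their values were seen, Sdha fell by 1.61 and Sdhb by 1.07 on the log2 scale (adjusted p = 0.000115 and 0.0139), while Sdhc and Sdhd had log2 fold changes of -0.98 and -0.64 and were not called.

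The malate dehydrogenases moved unequally. Mdh1 (ENSMUSG00000020321, chr11:21556787-21572367, - strand), the cytosolic enzyme of the malate-aspartate shuttle, was at 1550.5, 1430.0, 1659 and 2448 CPM in the controls and 533, 359.8, 552 and 496 CPM after cisplatin. It fell 3.65-fold (log2 fold change -1.87, SE 0.23, adjusted p = 0.000173). Mdh2 (ENSMUSG00000019179, chr5:135778480-135790398, + strand), the mitochondrial enzyme that closes the cycle, was at 623, 518, 692 and 859 CPM and 495, 473, 624 and 649 CPM. The groups of Mdh2 overlapped, its log2 fold change of -0.26 (SE 0.20) had an adjusted p of 0.302, and with total library size it was 0.30. Per kilobase, Mdh2 made up 21.6% ± 1.4 of the summed malate dehydrogenase level in the controls and 45.6% ± 4.02 after cisplatin (SD, n = 4).

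**Figure D3:**
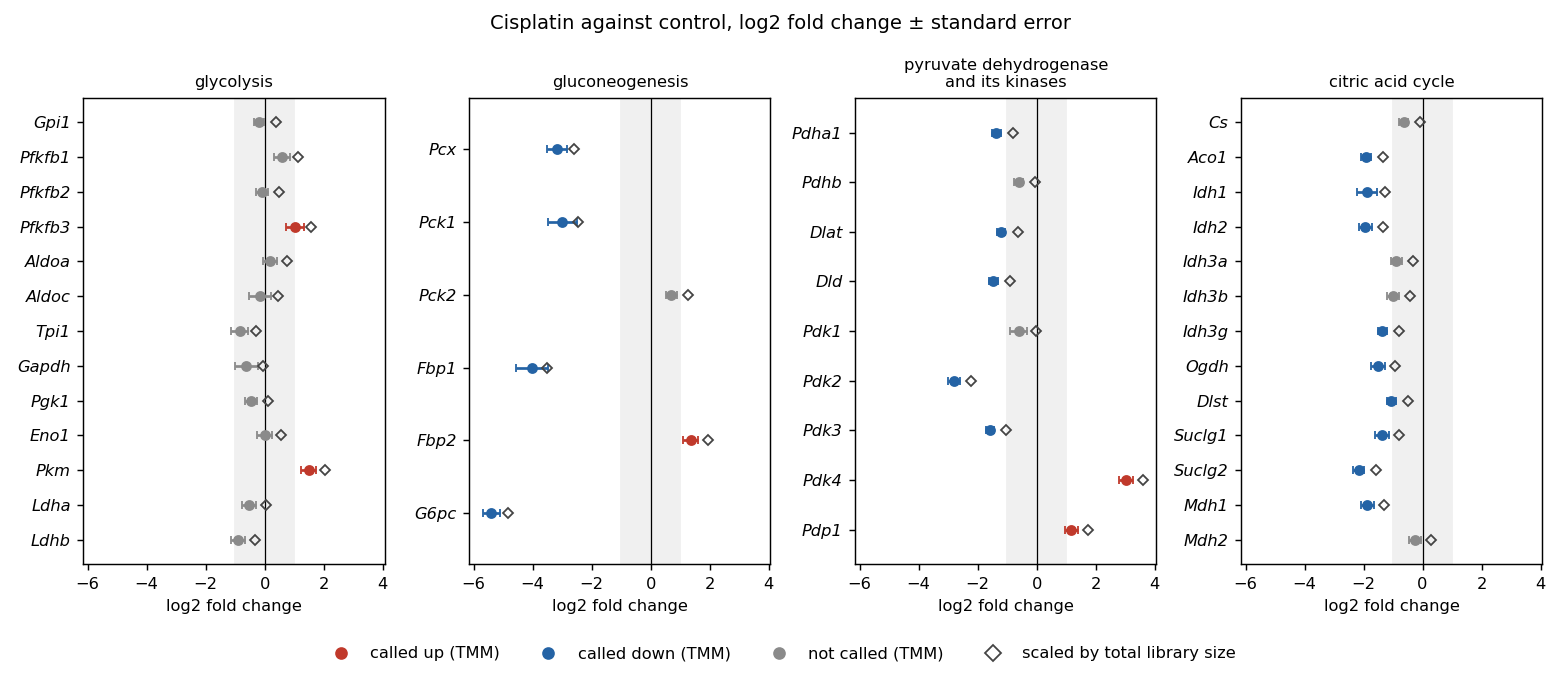
Log2 fold change of cisplatin against control (horizontal axis) for each of 41 genes in 4 panels by pathway, with the standard error as a bar for TMM scaling, open diamonds for scaling by total library size and grey shading between -1 and 1. Gluconeogenesis spans -5.40 to 1.36, and the citric acid cycle lies wholly below 0 under TMM, whereas under total library size Mdh2, Gpi1, Pfkfb2, Aldoc, Pgk1, Eno1 and Ldha move to the right of 0.

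Glycolysis held 2 up-regulated genes and no down-regulated gene among 13, where 19.2% and 15.7% of all tested genes were called. The count of up-regulated genes was thus not above the share over all genes. The median log2 fold change of the 13 genes was -0.15 and became 0.46 with total library size. Pkm (ENSMUSG00000032294, chr9:59656368-59679375, + strand), pyruvate kinase M, catalyses the last step. It was at 284, 290.1, 307 and 548 CPM in the controls and 1049.9, 826, 1033 and 1094 CPM after cisplatin. All cisplatin kidneys lay above all controls, including control 5, and Pkm rose 2.8-fold (log2 fold change 1.49, SE 0.25, adjusted p = 0.000871). The M1 and M2 splice forms share this row and were not separated. Pklr, the liver and red cell pyruvate kinase that kidney also uses, had no usable row.

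Pfkfb3 (ENSMUSG00000026773, chr2:11471433-11554077, - strand) encodes a 6-phosphofructo-2-kinase that makes fructose-2,6-bisphosphate, an activator of phosphofructokinase and inhibitor of fructose-1,6-bisphosphatase. Its values were 66.5, 62.2, 63.7 and 32.7 CPM in the controls and 91.2, 178, 115 and 72.2 CPM after cisplatin, with control 5 low and cisplatin 3 high. The log2 fold change of 1.02 (SE 0.31, adjusted p = 0.0209) was at the threshold, and the call was lost in 6 of 17 alternatives. Without cisplatin 3 it was 0.70, without control 5 it was 0.82, and without cisplatin 1 and 3 it was 0.74 with an adjusted p of 0.0757. The related Pfkfb2 and Pfkfb1 were low and not called, at 12.3 to 19.6 CPM and 1.73 to 4.39 CPM over all 8 libraries.

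The other enzymes of glycolysis were not called. Gpi1 (ENSMUSG00000036427, chr7:34201330-34230336, - strand), glucose-6-phosphate isomerase, was at 583, 554, 639 and 775 CPM in the controls and 539, 494, 623 and 596 CPM after cisplatin, and the groups overlapped. Aldoa (ENSMUSG00000030695, chr7:126795234-126800751, - strand), the aldolase of muscle and most tissues, was at 918, 876, 1073 and 1684 CPM and 1369, 1117, 1398 and 1287 CPM, with control 5 the highest of all. A second row named Aldoa, with 4 to 22 counts per library, was left aside. Aldoc, the brain-type aldolase, was at 7.85 to 30 CPM over all libraries and overlapped between the groups.

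Tpi1 (ENSMUSG00000023456, chr6:124810586-124814296, - strand), triose phosphate isomerase, was at 774, 684, 845 and 1444 CPM in the controls and 447, 377, 629.6 and 625 CPM after cisplatin. All cisplatin values of Tpi1 were below the controls, with an adjusted p of 0.0288, but the log2 fold change of -0.85 (SE 0.28) was under the threshold. With the library set, which was read from these same counts, as a covariate Tpi1 was called (log2 fold change -1.01, adjusted p = 0.000132). Without cisplatin 1 and 3 its adjusted p was 0.132. Pgk1 (ENSMUSG00000062070, chrX:106187100-106203699, + strand), phosphoglycerate kinase, was at 683, 611, 653 and 943 CPM and 475, 428, 571 and 622 CPM, and its highest cisplatin value lay above the lowest control. Eno1 (ENSMUSG00000063524, chr4:150236721-150248879, + strand), enolase 1, was at 845, 747, 928 and 1506 CPM and 869.8, 838, 1194 and 1115 CPM, and the group means were 1006 and 1004 CPM. Its log2 fold change of 0.00 (SE 0.25, adjusted p = 0.993) took either sign among the alternatives. Gapdh, glyceraldehyde-3-phosphate dehydrogenase (ENSMUSG00000057666, chr6:125161715-125166467, - strand), was at 52.4 to 135 CPM in the controls and 30.6 to 97.1 CPM after cisplatin, and its level per length in the controls, 19.7 CPM per kb, was far under the 340.2 CPM per kb of Tpi1, the preceding enzyme. In GENCODE M21, 127 genes, of which 122 are pseudogenes, carry a stretch of at least 200 bases with at least 95% identity to Gapdh transcripts, so the count of Gapdh is uncertain. Its log2 fold change was -0.62 (SE 0.40, adjusted p = 0.229), and without cisplatin 4 it was -1.09 and the gene was called. Of the 41 genes 13 had such near copies, 5 genes for Ldha, 4 each for Pgk1 and Eno1, 2 each for Gpi1, Tpi1 and Pkm, and 1 each for Aldoa, Ldhb, Pfkfb2, Pdha1, Pdhb and Suclg2.

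The lactate dehydrogenase subunits end the pathway. Ldha (ENSMUSG00000063229, chr7:46841475-46855627, + strand), the muscle-type subunit, was at 814, 708, 728 and 1363 CPM in the controls and 594, 514, 707 and 698 CPM after cisplatin. Every cisplatin kidney lay under every control, by a narrow margin between control 2 and cisplatin 4, while the log2 fold change of -0.52 (SE 0.24) had an adjusted p of 0.0994 and was 0.04 with total library size. Ldhb (ENSMUSG00000030246, chr6:142490249-142507957, - strand), the heart-type subunit, was at 1622, 1472, 1845 and 2206 CPM and 1212, 1094, 819.7 and 685 CPM, without overlap (log2 fold change -0.91, SE 0.23, adjusted p = 0.00958). It did not reach the fold threshold over all 8 libraries, and without cisplatin 1 and 3 its log2 fold change was -1.24.

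Ratios of isozymes within a library do not depend on the scaling between libraries. The log2 ratio of counts was formed for 15 pairs of isozymes, and the groups were compared by an exact two-sided permutation test, in which 4 against 4 libraries can give no p under 0.0286. The groups did not overlap in 10 pairs, each with p = 0.0286 and a Benjamini-Hochberg adjusted p of 0.0429 over the 15 pairs (exact permutation test). This p is the smallest the test can give, so it does not rank these pairs. In Pdk2 to Pdk4, Pdk3 to Pdk4, Fbp1 to Fbp2 and Pck1 to Pck2, the first gene lay wholly below and the second wholly above the controls. Their ratios therefore had to separate the groups, and their p adds nothing to the results of the single genes. Of all single genes, 23.7% lay wholly above and 22.5% wholly below the controls. How often pairs of other genes separate the groups was not tested. Pdk2 to Pdk4 had the largest shift, from 3.65, 3.72, 3.91 and 3.39 in the controls to -1.90, -1.86, -1.54 and -3.22 after cisplatin, a difference of -5.79 or 55.4-fold. Fbp1 to Fbp2 went from 6.57, 6.40, 6.42 and 5.98 to -0.59, -0.27, 1.39 and 1.85, a difference of -5.75 or 53.7-fold. In cisplatin 1 and 3 fewer reads were thus counted on Fbp1 than on Fbp2. Pck1 to Pck2 went from a mean of 6.98 ± 0.40 to 2.98 ± 1.06 (SD, n = 4), a 16-fold shift. Mdh1 to Mdh2 went from 1.39 ± 0.12 to -0.21 ± 0.24, a 3.03-fold shift.

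The remaining pairs that separated the groups were Pdk3 to Pdk4 (difference -4.56), Pdk1 to Pdk4 (-3.68), Pdk1 to Pdk2 (2.11), Pdk2 to Pdk3 (-1.24), Pfkfb2 to Pfkfb3 (-1.10) and Pdk1 to Pdk3 (0.87). Pairs of 1 family share genes and are not independent of each other. The 5 pairs that overlapped were Pfkfb1 to Pfkfb2, Pfkfb1 to Pfkfb3, Aldoa to Aldoc, Ldha to Ldhb and Idh1 to Idh2. Ldha to Ldhb was -1.02 ± 0.27 in the controls and -0.58 ± 0.57 after cisplatin (exact permutation p = 0.286, two-sided), and Idh1 to Idh2 was 0.07 ± 0.30 and 0.01 ± 0.53 (exact permutation p = 0.886, two-sided).

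**Figure D4:**
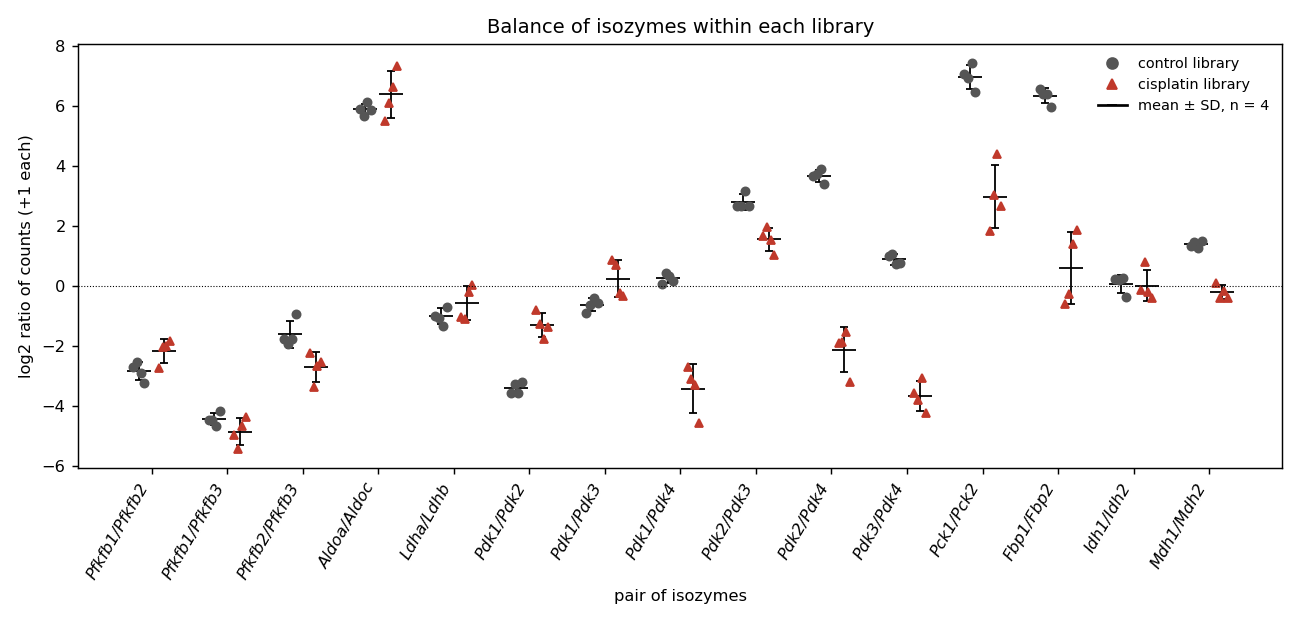
Log2 ratio of counts (1 added to each) of 15 isozyme pairs in each library, with circles for the 4 controls, triangles for the 4 cisplatin kidneys and lines for the mean ± SD. The clouds are apart in 10 pairs, most widely in Pdk2/Pdk4 and Fbp1/Fbp2, and they overlap in Aldoa/Aldoc, Ldha/Ldhb, Idh1/Idh2 and the pairs of Pfkfb1.

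Genes that carry sugars and acids to or from these pathways were read from further lists. Genes that rose or fell are those called, and over all tested genes 19.2% were called higher and 15.7% lower. The lists are short, so a count near these shares says little about a list. Of 20 other carbon enzymes and subunits tested, 1 rose (Pgm1, a phosphoglucomutase, log2 fold change 1.58) and 11 fell, with a median of -1.14. The falls included Me1, the cytosolic malic enzyme (-2.73), and Khk, ketohexokinase (-2.68). Of 10 transporters, 3 rose: Slc16a3, a lactate exporter (2.07), Slc2a1, the glucose transporter GLUT1 (1.86), and Slc2a3 or GLUT3 (1.04). Mean levels in controls and cisplatin kidneys were low for Slc16a3 (1.49 and 6.3 CPM) and Slc2a3 (2.27 and 4.68 CPM). Those of Slc2a1 were 90.3 and 327.6 CPM. Another 5 transporters fell, among them Slc5a12, which takes up lactate (-5.83), Slc5a2, the glucose transporter SGLT2 (-3.85), and Slc25a10, the mitochondrial dicarboxylate carrier (-2.13). Slc5a12 and Slc5a2 are also in the list of proximal tubule markers. Of 4 genes of the pentose phosphate pathway, Taldo1 (1.48) and G6pdx (1.35) rose and none fell. Of 12 genes that supply gluconeogenic substrate, 6 fell and none rose, among them Slc13a3, a dicarboxylate transporter and proximal tubule marker (-4.01), and Gk, glycerol kinase (-3.75). Of 10 transcriptional regulators of carbon metabolism, 4 fell, among them Hnf4a (-3.18) and Mlxipl (-2.30), while none rose.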

How the data were processed

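Poly(A) RNA of 8 kidneys was sequenced. The authors aligned cleaned reads to GRCm38 with HISAT2 (fastp is also named in the submitters' processing notes) and deposited raw counts per gene, with 1 column per library. The counting tool, annotation release and strand setting are not given in the sources used here, and the paper and the labels name different library kits. The span of 13 of the 41 genes, introns included, overlaps a gene on the opposite strand. Without a stated strand setting, reads in a stretch shared by both genes may have been counted for either, and overlap of exons was not examined. Of 53715 rows, 35880 held 8 values and were used. The other 17835 held 10 values, and the 2 extra, unnamed columns were used in no step.

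Groups came from the labels. Counts were tested with edgeR 4.0.16 in R 4.3.3 (default expression filter, TMM scaling, quasi-likelihood test, Benjamini-Hochberg adjustment over 9141 genes), with calls at an adjusted p under 0.05 and a log2 fold change of at least 1 in size. CPM values are TMM-normalized, except the CPM of 3 counts, and intervals from counts cover counting error only. Isozyme ratios (1 added to each count) were compared by an exact two-sided permutation test. Libraries of a group differed by a chi-square per gene of at least 15.1, so none was counted as a duplicate. The procedure was tested on simulated counts. The genes and lists were chosen with earlier results of these data known. Named were all usable genes of the list, with values per library for called genes and for uncalled genes averaging 100 CPM or more, and from each further list the 3 called genes of largest change per direction and other subunits of a complex. Some genes of these further lists are not reported here. Coordinates are those of GRCm38 and match GENCODE M21 for all 41 genes. Near copies were found with blastn 2.17.0. Alternatives were DESeq2 1.42.0, DESeq2's size factors, total library size, other filters on low counts, no fold threshold, a replicate block, the library set as a covariate, the first library set alone, removal of cisplatin 1 and 3, each library left out in turn, and 0.5 added to counts in the ratios. The library set was read from the same counts and not from the labels, so its use as a covariate is no independent check.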

Additional observations from a re-analysis of the deposited data

Results flagged for a closer look

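Within groups of 4 libraries, 9 of 112 sets of values held a library whose gap to its nearest neighbour, divided by the range of its group, exceeded Dixon's limit for 4 values, and chance alone flags about 1 group in 20. In 8 of the 9 the library was control 5, which belongs to the second library set. Its Pkm level of 548.0 CPM stood above 283.9 to 306.6 CPM in the other controls, its Ldha level of 1363.1 CPM above 707.6 to 814.0 CPM, and its Suclg1 level of 708.6 CPM above 422.4 to 467.8 CPM. Aldoc was at 28.5 CPM in control 5 against 15.2 to 17 CPM, Pck2 at 34.6 CPM against 21.8 to 23.9 CPM, and Fbp2 at 34 CPM against 15.4 to 18.2 CPM. Pfkfb3 was the 1 gene that was low there, at 32.7 CPM against 62.2 to 66.5 CPM. The log2 ratio of Idh1 to Idh2 was -0.38 in control 5 and 0.19 to 0.25 in the other controls. The log2 ratio of Pdk2 to Pdk3 was 3.18 in control 3 and 2.65 to 2.66 in the others. Without control 5, the call of Pfkfb3 was lost, and the calls of Pkm, Suclg1 and Fbp2 held.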

How the results depend on the processing

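Of 697 values of the 41 genes under alternatives, 646 kept their direction and their side of the threshold, 14 calls were lost, 19 were gained and 18 uncalled values changed sign. With total library size, 3174 genes were higher and 803 lower over all genes, 11 of the 41 genes were lower, 2 gluconeogenic genes were higher, 2 genes of pyruvate dehydrogenase and 5 of the citric acid cycle were lower, and the log2 fold change turned to 0.39 for Gpi1, 0.48 for Pfkfb2, 0.46 for Aldoc, 0.10 for Pgk1, 0.56 for Eno1, 0.04 for Ldha and 0.30 for Mdh2. The log2 fold change of the median gene is 0.57 higher with total library size than with TMM. The TMM factors were 0.785 to 0.854 in the controls and 1.152 to 1.317 in the cisplatin libraries. Which scaling is nearer to the RNA content of the kidneys was not tested. A minimum of 10 counts in every library tested fewer genes and called 1101 higher. Only 1 glycolysis gene, Pkm, was higher with DESeq2, with DESeq2's size factors, with the replicate block and without cisplatin 1 and 3, and 1 glycolysis gene, Ldhb, was lower without cisplatin 1 and 3, as Tpi1 was with the library set as a covariate (1 gene). With no fold threshold 2 glycolysis genes were lower and 2 gluconeogenic genes higher. Leaving out each library gave 1 to 2 glycolysis genes higher and 0 to 1 lower, with the lower count of higher genes when control 5 or cisplatin 3 was left out and 1 lower without cisplatin 1 (Ldhb) or cisplatin 4 (Gapdh), and log2 fold changes of -0.18 to 0.03 for Pfkfb2, -0.57 to 0.10 for Aldoc and -0.13 to 0.24 for Eno1. Eno1 was also above 0 with no filter on low counts (0.01), with at least 10 counts in every library (0.03) and without cisplatin 1 and 3 (0.21), and Aldoc was above 0 in the first library set (0.49) and with the replicate block (0.54). The cause of these changes was not tested.

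Replicate numbers 1 and 3 occur in both groups. Same-numbered libraries had correlated deviations (0.25 and 0.28), as had other pairs of the first library set (0.15 to 0.35), so the numbers were not taken as pairs. With the replicate block, the log2 ratio of Pdk1 to Pdk2 differed by 2.53 between the groups instead of 2.11, and 4 of the 41 genes were higher and 19 lower. The depth of 3 counts, 0.180 to 0.274 CPM, lay under the level of all 41 genes.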
